A study of Mus musculus with 61 samples.

Results

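Skeletal muscle transcripts of Cast mice were set against those of WSB mice, directly and across all genes. Both strains descend from wild-caught mice, Cast from the subspecies Mus musculus castaneus and WSB from Mus musculus domesticus, and both are founders of the Diversity Outbred mouse population. The comparison took every library whose title starts with Cast, 7 in number, and every library whose title starts with WSB, 8 in number, which makes 15 of the 61 libraries of the series. The remaining 46 libraries came from AJ, B6, 129, NOD, NZO and PWK mice. Both strains, like all others of the series, received a diet high in fat and sugar, labelled 45 percent fat, and neither strain is a control. The labels give no sex, age or muscle, and nothing in them ties each library to an animal of its own. The p-values therefore describe how far libraries of a strain scatter, which may be technical. That scatter was estimated in a single fit over all 61 libraries and not from these 15 alone.

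Skeletal muscle is built of slow and fast fibres, which differ in their myosins, troponins and calcium pumps, and it is the main site of insulin-driven glucose uptake. Muscle protein is broken down by the ubiquitin-proteasome system and by autophagy, both under the control of FoxO transcription factors. Fibroblasts, vessels, nerves, fat cells and immune cells lie between the fibres and add their transcripts to whole-muscle RNA, so that fewer cells of a type and less RNA per cell cannot be told apart in these bulk samples.

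Expected counts of poly(A) RNA totalled 26770866 to 36659703 per Cast library and 31268970 to 45893017 per WSB library. Levels are given as CPM, counts scaled to the same total in every library, and each range is the lowest to the highest library of a strain. The 10 myofibre markers summed to 151264 to 203345 CPM (median 161351) in Cast libraries, against 119790 to 159889 CPM (median 142519) in WSB libraries, so that both strains carried the transcripts of muscle fibres. On the first principal component of the 15 libraries, which held 52.6% of the variance, Cast_1, Cast_5 and Cast_6 lay at 43.7, 68.2 and 79.3, the other 4 Cast libraries between 8.4 and 22.9, and the WSB libraries between -33.6 and -27.9. These 3 Cast libraries stood apart from the rest of their strain, and most results that rest on them are given with and without them. Xist, which is transcribed from the inactive X chromosome of females, was at 187 to 242 CPM in Cast_1, Cast_2 and Cast_3 and at 0.351 to 3.33 CPM in the other 4 Cast libraries. In WSB libraries it was at 162 to 241 CPM in WSB_1, WSB_3, WSB_4 and WSB_9, at 28.5 CPM in WSB_5 and at 0.546 to 8.16 CPM in the other 3. High and low Xist were therefore found in both strains, and the 3 Cast libraries that stood apart held both kinds. The Y-linked gene Kdm5d ran the other way, at 0.338 to 0.738 CPM in Cast_1, Cast_2 and Cast_3 and 12.6 to 17.3 CPM in the other Cast libraries. It was at 18.8 to 20.3 CPM in WSB_5, WSB_6, WSB_7 and WSB_8, and at 0 to 0.229 CPM in the other WSB libraries. The Y-linked genes Uty, Ddx3y and Eif2s3y split the libraries in the same way.

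In the fit over all 61 libraries, Cast and WSB muscle differed at more than 50% of the genes tested. Of 16682 genes tested, 8809 (52.8%) passed an adjusted p of 0.05 in edgeR's quasi-likelihood test with Benjamini-Hochberg adjustment, which also gave every adjusted p below. In Cast, 4487 genes were higher (26.9%) and 4322 lower (25.9%), and the median difference over all genes was 0.00 on the log2 scale. Counts of list members below are to be read beside these shares. A list with shares near them was called no more often than genes in general. A difference of at least 1 log2 unit was called for 2635 genes (15.8%), with 1151 higher (6.9%) and 1484 lower (8.9%) in Cast. For 2354 genes (14.1%) the ranges of the 7 Cast and the 8 WSB libraries did not overlap. Without Cast_1, Cast_5 and Cast_6, 6373 of 17123 genes were called, and 5368 of them were among the 8809 with the same direction. A fit of the Cast and WSB libraries alone called 6280 of 15164 genes. Both are smaller shares than 52.8%.

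Set against the mean of the 6 remaining strains, Cast differed at 10424 genes (62.5%) and WSB at 6324 genes (37.9%); both comparisons use the same 46 libraries. Of the 2635 genes that differed by at least 1 log2 unit between Cast and WSB, the mean of Cast alone lay outside the range of those 6 strain means for 1180, and the mean of WSB alone for 448. Both lay outside it for 671, and neither for 336. All counts of this paragraph include Cast_1, Cast_5 and Cast_6 and were not taken without them. What part the mapping of reads to GRCm38 had in them was not tested.

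**Figure D1:**
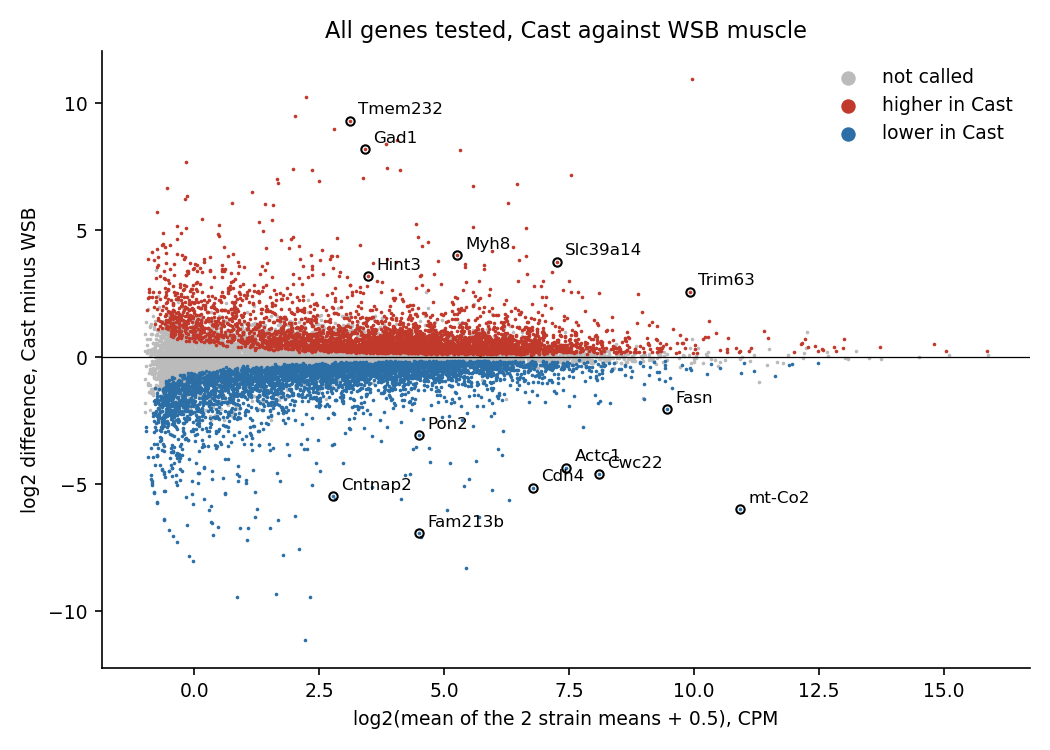
Log2 difference, Cast minus WSB, of each of the 16682 genes tested (vertical axis) against the log2 of the mean level of both strains in CPM plus 0.5 (horizontal axis). Red points are the 4487 genes higher in Cast, blue points the 4322 lower in Cast and grey points those not called, with 14 genes circled and named, among them Tmem232 at 9.32, Trim63 at 2.59, Fasn at -2.03 and Fam213b at -6.91.

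The genes highest in Cast relative to WSB included Myh8, the perinatal myosin heavy chain that adult fibres normally replace. Myh8 (chromosome 11, 67277124 to 67308634) was at 40 to 99.1 CPM (median 65.8) in Cast libraries, against 2.44 to 5.83 CPM (median 4.67) in WSB libraries, a log2 difference of 4.03 ± 0.24 (SE; adjusted p = 7.39e-21). Every Cast library exceeded every WSB library, and the 6 other strain means ran from 3.64 to 15.3 CPM. Gad1, which encodes the glutamate decarboxylase that makes the neurotransmitter GABA, was at 7.45 to 55.1 CPM (median 16.8) in Cast libraries, against 0 to 0.153 CPM (median 0.0482) in WSB libraries (8.20 ± 0.58, adjusted p = 3.64e-18). The 6 other strain means of Gad1 were 0.0233 to 0.0531 CPM, so that Cast was the one strain with an appreciable level. Gad1 overlaps the antisense gene Gad1os, and reads of the pair cannot be told apart without strand. Tmem232, a transmembrane protein gene, stood at 8.24 to 22.4 CPM (median 15.7) in Cast libraries and at 0 to 0.0819 CPM (median 0.0127) in WSB libraries, the largest difference of these genes (9.32 ± 0.49, adjusted p = 9.57e-24). Chrna9, the alpha 9 subunit of nicotinic acetylcholine receptors that is known from cochlear hair cells, was at 5.68 to 60.6 CPM (median 26.2) in Cast libraries, against 0.189 to 7.64 CPM (median 1.66) in WSB libraries (3.75 ± 0.59, adjusted p = 3.69e-07). Its ranges overlapped through Cast_5 at 5.68 CPM, Cast_6 at 6.78 CPM and WSB_4 at 7.64 CPM.

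Further genes with no overlap between the strains were the von Willebrand domain gene Vwa3b (log2 difference 4.41), the ubiquitin ligase subunit Fbxo44 (3.99), the umami taste receptor subunit Tas1r1 (3.98), the harmonin gene Ush1c (3.87) and the actin-nucleating formin Fmn1 (3.71). Adjusted p-values of these 5 genes ran from 6.14e-21 to 6.36e-16. The IgG heavy-chain genes Ighg2c and Ighg2b were also among the 15 highest, at 4.71 and 4.56, but through few libraries. Ighg2b was at 267 CPM in Cast_7 and 68.8 CPM in Cast_8 and at most 0.0738 CPM in the other 5 Cast libraries, against 0 to 13.7 CPM (median 0.238) in WSB libraries. Ighg2c was at 77.6 CPM and 12.7 CPM in the same Cast libraries and at 0 in the other 5, against 0 to 1.34 CPM (median 0.326) in WSB libraries. Without Cast_7 the calls of both ended (Ighg2b 2.51, adjusted p = 0.0811, and Ighg2c 2.12, adjusted p = 0.0687), and without WSB_8 Ighg2b was at 7.16. Both calls also ended in limma on the authors' variance-stabilised values (Ighg2b 1.06 and Ighg2c 0.61). With the white adipocyte marker sum as a covariate, Ighg2b was at 3.18 and no longer called (adjusted p = 0.0596). The summed lymphocyte markers were at 69.8 CPM in Cast_7 and 31.1 CPM in Cast_8, and at most 3.06 CPM in the other 5 Cast libraries, and at 3.66 to 158 CPM (median 21.5) in WSB libraries. With the hepatocyte, lymphocyte and keratinocyte marker sums together as covariates, the calls of both immunoglobulin genes held. The part of the lymphocyte markers by themselves in the immunoglobulin result was not tested.

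The genes lowest in Cast relative to WSB included another developmental sarcomere gene, Actc1. It encodes cardiac alpha-actin, which is the fetal actin of skeletal muscle. Actc1 (chromosome 2, 114047282 to 114053548) was at 6.74 to 35.2 CPM (median 9.77) in Cast libraries, against 125 to 610 CPM (median 263) in WSB libraries (-4.34 ± 0.62, adjusted p = 4e-08). Its ranges did not overlap, and within WSB the 4 libraries with Xist at 162 CPM or more held 344 to 610 CPM, while the other 4 held 125 to 182 CPM. Ostn, the gene of the muscle-secreted peptide musclin, was at 1.02 to 5.81 CPM (median 2.29) in Cast libraries, against 25.6 to 82.3 CPM (median 43.2) in WSB libraries (-4.10 ± 0.44, adjusted p = 1.82e-11). The same 4 WSB libraries held 57.5 to 82.3 CPM of Ostn and the other 4 held 25.6 to 29 CPM, all above the highest Cast library. C7, a complement protein gene, and Neto2, an auxiliary subunit of kainate receptors, were split the other way round within WSB. C7 overlapped between the strains. It was at 0.258 to 4.27 CPM (median 1.92) in Cast libraries, against 2.1 to 6.27 CPM in the 4 WSB libraries high in Xist and 35.1 to 38.2 CPM in the other 4 (log2 difference -3.08, adjusted p = 0.00141). Neto2 was at 1.29 to 3.46 CPM (median 2.11) in Cast libraries, against 7.23 to 9.07 CPM in the 4 WSB libraries high in Xist and 30.9 to 49.3 CPM in the other 4 (-3.30, adjusted p = 4.02e-08). With the Xist level as a covariate the Cast to WSB difference was -3.68 for Actc1, -3.77 for Ostn, -3.47 for C7 and -3.43 for Neto2, and all 4 calls held.

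Cdh4, which encodes R-cadherin, a cell adhesion protein, was at 3.22 to 11.8 CPM (median 4.72) in Cast libraries, against 164 to 248 CPM (median 214) in WSB libraries (-5.13 ± 0.26, adjusted p = 4.92e-24). WSB alone was high, since the 6 other strain means ran from 7.43 to 44.5 CPM. Fam213b, the gene of a prostaglandin F synthase, was at 0 to 0.929 CPM (median 0.169) in Cast libraries, against 28.3 to 62.3 CPM (median 42.7) in WSB libraries (-6.91 ± 0.31, adjusted p = 5.4e-27). Here Cast alone was low, with the 6 other strain means at 40.9 to 57.9 CPM. Cntnap2, which clusters potassium channels on axons, was at 0.0835 to 0.516 CPM (median 0.238) in Cast libraries, against 8.76 to 16.9 CPM (median 12) in WSB libraries (-5.47 ± 0.29, adjusted p = 1.92e-23), and the 6 other strain means spanned 0.0252 to 18.3 CPM. Gdf11, a growth factor gene close in sequence to myostatin, was at 0.501 to 2.19 CPM (median 0.996) in Cast libraries, against 6.47 to 17.9 CPM (median 10.6) in WSB libraries (-3.40 ± 0.24, adjusted p = 3.93e-18), and its 6 other strain means were 5.25 to 15.3 CPM.

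Of the remaining lowest genes, the paraoxonase Pon2 (-3.05), the Golgi phosphatase Impad1 (-2.89), the deubiquitinase Otub2 (-2.77), the integrin subunit Itga4 (-2.43), the neuropeptide receptor Vipr2 (-2.42) and the phosphodiesterase Smpdl3b (-4.48) showed no overlap between the strains. Adjusted p-values of these 6 ran from 1.07e-37 to 2.31e-08. The guanylate-binding protein gene Gbp6, as ENSMUSG00000079362, was at 0 to 0.996 CPM (median 0) in Cast libraries, against 3.25 to 21.9 CPM (median 13.6) in WSB libraries (-5.58 ± 0.68, adjusted p = 5.61e-10). This Gbp6 overlaps Gbp10 and another gene of the same name on the same strand, so that its reads are uncertain. Of the 15 genes highest in Cast relative to WSB, Cast was above all 6 remaining strain means for 15 and WSB below all 6 for 1. Of the 15 lowest, Cast was below all 6 for 10 and WSB above all 6 for 7. Both groups of 15 were chosen by the Cast to WSB difference itself. Among all 2635 genes called by at least 1 log2 unit, Cast alone lay outside the 6 strain means for 1180. WSB alone lay outside them for 448, and both strains for 671.

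**Figure D2:**
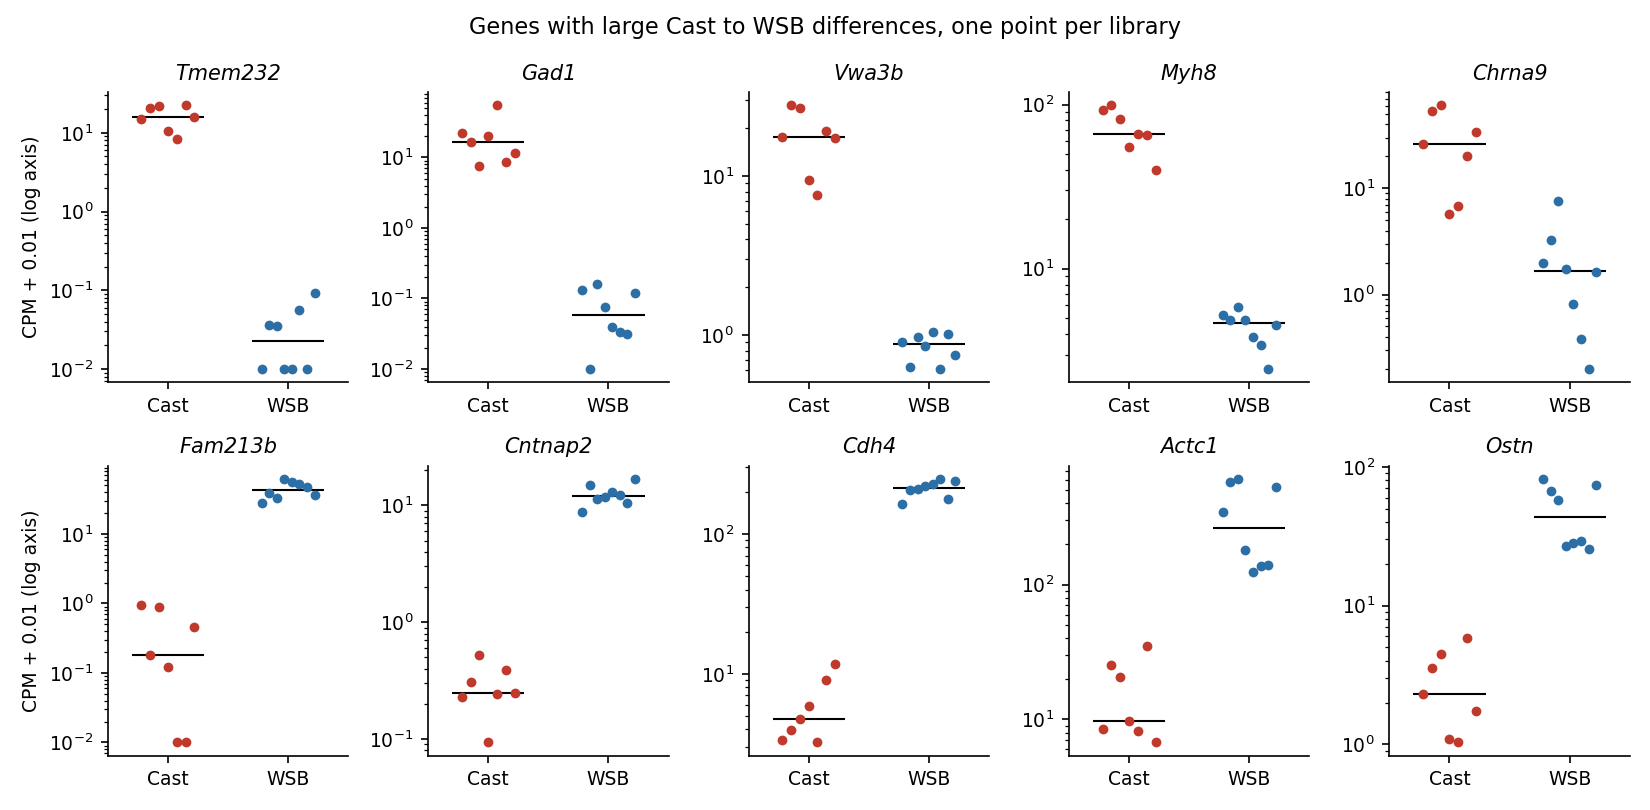
Level of 10 genes in each of the 7 Cast (red, left) and 8 WSB libraries (blue, right), as CPM plus 0.01 on a log axis, with the horizontal line at the median of the strain. Chrna9 is the one gene shown whose ranges overlap, and in Actc1 and Ostn the WSB libraries fall into a higher and a lower set of 4.

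Apart from the genes above and those with near-identical copies, 6 genes were chosen by the largest F, which sets a difference against the spread between libraries. Pon2 and Impad1, named above, had a larger F than all of these 6 except Hint3. Hint3, a nucleotide hydrolase gene, was at 16.1 to 23.4 CPM (median 18.2) in Cast libraries, against 1.76 to 2.36 CPM (median 2.13) in WSB libraries (3.19 ± 0.07, adjusted p = 1.56e-41). WSB alone was low, with the 6 other strain means at 16.6 to 18.1 CPM. Gmppa, a regulator of GDP-mannose synthesis, was at 14.6 to 17 CPM (median 16) in Cast libraries, against 4.16 to 6.78 CPM (median 5.59) in WSB libraries (1.53 ± 0.07, adjusted p = 2.14e-27), and the 6 other strain means were 14.2 to 15.6 CPM. Tpp1, a lysosomal peptidase gene, was at 23.3 to 30.6 CPM (median 26.8) in Cast libraries, against 61.1 to 75.6 CPM (median 67.7) in WSB libraries (-1.30 ± 0.06, adjusted p = 2.87e-27). The 6 other strain means of Tpp1 were 43.2 to 51.2 CPM, between the 2 strains. Kiz, a centrosomal protein gene (1.53 ± 0.06), and the arsenic methyltransferase gene As3mt (1.93 ± 0.08) were higher in Cast, and Firre, an X-linked long noncoding RNA gene (-2.24 ± 0.10), was lower. None of these 6 genes overlapped between the strains.

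Genes with near-identical copies were kept out of these groups. Of the 36 genes in the highest, lowest and largest-F groups, with the metal-handling genes and Doc2b described below included, 28 did not overlap between the strains. Over all 16682 genes tested, 2354 (14.1%) did not overlap. The 36 were chosen for a large difference or F in the same comparison, which favours such genes. An annotated gene lies on the other strand of 17 of the 36, among them Mmel1 at Fam213b and Cerkl at Itga4, and the use of strand in counting is not given in the sources used here. On the authors' variance-stabilised values, whose scale compresses low levels, the difference was more than 1.5 times smaller for 21 of the 36.

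Genes of muscle protein breakdown were higher in Cast. All 17 genes of the atrophy and proteolysis list passed the test as higher (median log2 difference 1.45, against 0.00 over all genes), as did 26 of 32 proteasome genes, with 0 lower in either list (median 0.46). The levels were set largely by 3 libraries. Trim63, the muscle ubiquitin ligase MuRF1, was at 3152 CPM in Cast_1, 2998 CPM in Cast_5 and 3682 CPM in Cast_6, at 1129 CPM in Cast_2 and at 115 to 291 CPM in the other 3 Cast libraries, against 141 to 406 CPM (median 283) in WSB libraries. The log2 difference was 2.59 ± 0.38 (adjusted p = 7.08e-08), and without those 3 libraries 0.67 (adjusted p = 0.082). Foxo1, the transcription factor that drives this programme, was at 34.7 to 484 CPM (median 131) in Cast libraries, against 26.1 to 63.4 CPM (median 39.5) in WSB libraries (2.36 ± 0.32, adjusted p = 8.36e-09; 0.99, adjusted p = 0.00256 without the 3). Ctsl, the lysosomal cathepsin L, was at 115 to 1341 CPM (median 191) in Cast libraries, against 66.6 to 96.8 CPM (median 82.1) in WSB libraries (2.54 ± 0.28, adjusted p = 3.82e-11; 0.93, adjusted p = 4.46e-06 without the 3). Ctsl was above every WSB library in all 7 Cast libraries, whereas Foxo1 overlapped through Cast_8 at 34.7 CPM. Gabarapl1, which works in autophagosome formation, was at 59.2 to 716 CPM (median 159) in Cast libraries, against 44.1 to 59.2 CPM (median 52.8) in WSB libraries (2.59 ± 0.29, adjusted p = 3.71e-11; 0.82, adjusted p = 1.12e-05 without the 3).

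Without Cast_1, Cast_5 and Cast_6, 11 of the 17 atrophy genes were still called higher and 0 lower (median 0.37), and 13 of the 32 proteasome genes were higher and 0 lower (median 0.14). Over all genes in that fit, 3140 of 17123 were called higher and 3233 lower. Psmd8, a proteasome lid subunit, was at 137 to 352 CPM (median 165) in Cast libraries, against 60.9 to 128 CPM (median 82) in WSB libraries (1.25 ± 0.20, adjusted p = 2.67e-07; 0.80, adjusted p = 0.000933 without the 3), with no overlap. The summed atrophy genes were at 10298 CPM in Cast_1, 11484 CPM in Cast_5 and 15427 CPM in Cast_6, at 1922 to 4827 CPM in the other 4 Cast libraries, and at 1686 to 2657 CPM (median 2292) in WSB libraries.

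Genes of metal binding were among the largest differences through the same 3 libraries. Metallothioneins bind zinc and copper and are induced by metals, glucocorticoids and inflammation. Mt1 was at 309, 415 and 529 CPM in Cast_1, Cast_5 and Cast_6 and at 5.18 to 26.8 CPM in the other 4 Cast libraries, against 6.72 to 23.7 CPM (median 10.4) in WSB libraries. Its log2 difference was 3.98 ± 0.64 (adjusted p = 5.18e-07), and without the 3 libraries 0.26 (adjusted p = 0.723). Mt2 followed the same libraries, with 8.43 to 460 CPM (median 25.6) in Cast libraries, against 5.28 to 28.3 CPM (median 9.48) in WSB libraries (3.82 ± 0.71, adjusted p = 8.91e-06; 0.31, adjusted p = 0.735 without the 3). Slc39a14, the zinc, manganese and iron importer ZIP14, was at 471, 486 and 891 CPM in the 3 libraries and at 19.7 to 43.2 CPM in the other 4 Cast libraries, against 12.9 to 32.8 CPM (median 20.3) in WSB libraries (3.77 ± 0.42, adjusted p = 6.41e-11; 0.62, adjusted p = 0.00355 without the 3). Doc2b, a calcium sensor of vesicle fusion that takes part in the delivery of the glucose transporter GLUT4, was at 1.03 to 161 CPM (median 8.71) in Cast libraries, against 0.556 to 1.69 CPM (median 0.996) in WSB libraries (5.26 ± 0.62, adjusted p = 2.26e-10; 1.89, adjusted p = 0.000851 without the 3). For Mt1 and Mt2 the 4 other Cast libraries lay within or close to the WSB range, while Doc2b and Slc39a14 kept their calls without the 3.

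**Figure D3:**
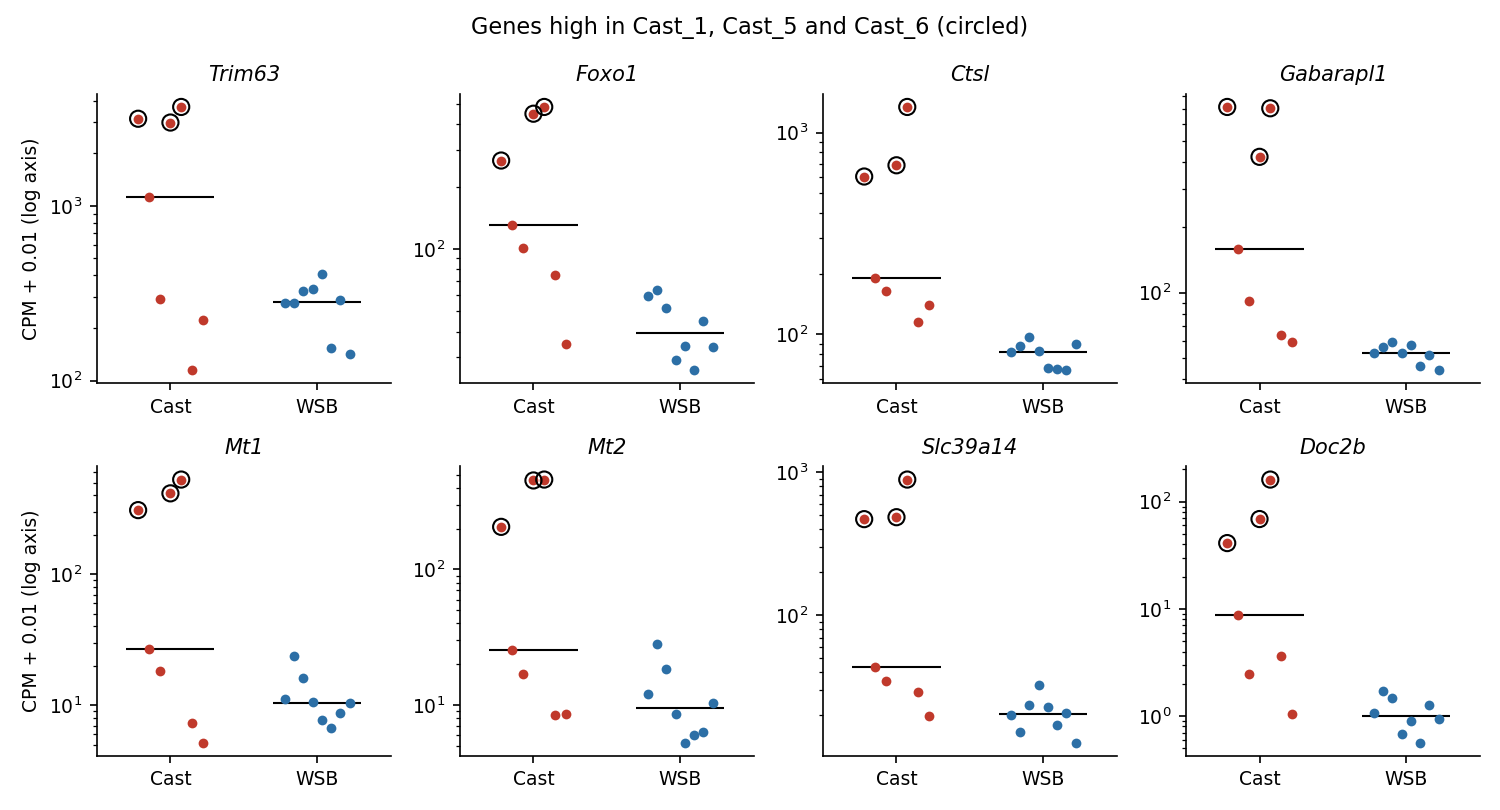
Level of 8 genes in each of the 7 Cast (red, left) and 8 WSB libraries (blue, right), as CPM plus 0.01 on a log axis, with Cast_1, Cast_5 and Cast_6 circled and the horizontal line at the median of the strain. The circled libraries are the 3 highest in each panel, and Cast_2 is the next highest in every panel except that of Mt2, with Trim63 at 1129 CPM.

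The promoters of 3 of these genes are shown because their levels moved together in the 3 libraries. They are the RefSeq sequences on GRCm38.p6, all on the plus strand and 300 bases long, for Mt1 (chr8:94178839-94179138), Mt2 (chr8:94172368-94172667) and Trim63 (chr4:134314870-134315169); that of Fbxo32 is named only. Capitals mark matches on either strand to the metal-response core TGCACNC or TGCGCNC, the FoxO core GTAAACA, or a glucocorticoid-type motif, AGAACA followed by any 3 bases and TGT.
Mt1: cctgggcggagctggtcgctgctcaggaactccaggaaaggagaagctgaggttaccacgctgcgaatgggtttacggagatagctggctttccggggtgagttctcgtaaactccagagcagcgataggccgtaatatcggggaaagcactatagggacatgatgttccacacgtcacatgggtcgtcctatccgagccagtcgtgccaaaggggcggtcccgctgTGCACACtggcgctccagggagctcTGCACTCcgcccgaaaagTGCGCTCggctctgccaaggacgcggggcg
Mt2: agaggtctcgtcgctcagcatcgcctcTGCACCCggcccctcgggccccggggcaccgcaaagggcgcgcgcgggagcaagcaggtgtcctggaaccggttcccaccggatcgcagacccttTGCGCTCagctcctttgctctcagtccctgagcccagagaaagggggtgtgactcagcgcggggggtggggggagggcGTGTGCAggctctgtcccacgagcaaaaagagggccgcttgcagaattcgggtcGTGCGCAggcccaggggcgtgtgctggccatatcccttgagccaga
Trim63: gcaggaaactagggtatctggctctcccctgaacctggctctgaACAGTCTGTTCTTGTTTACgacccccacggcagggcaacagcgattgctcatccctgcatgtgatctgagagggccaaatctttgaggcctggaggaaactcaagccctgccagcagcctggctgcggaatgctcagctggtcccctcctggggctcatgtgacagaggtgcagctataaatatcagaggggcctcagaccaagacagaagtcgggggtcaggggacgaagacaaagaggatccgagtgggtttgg
Mt1 held 3 and Mt2 held 4 matches to the metal-response core, which is present in 25.6% of 27025 RefSeq promoters of this length. Trim63 held 1 match to the FoxO core, present in 3.55% of those promoters, directly beside 1 match to the glucocorticoid-type motif, present in 0.396%, and the matches do not overlap. A match describes the letters and not the binding of a factor in these muscles.

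The list of redox and metallothionein genes had 16 of 25 members higher and 3 lower in Cast (11 and 3 without the 3 libraries). The lower ones were Slc7a11, Gpx3 and Gsta4. Gpx3, the secreted glutathione peroxidase, was at 47.4 to 166 CPM (median 89.4) in Cast libraries, against 170 to 509 CPM (median 221) in WSB libraries (-1.53 ± 0.31, adjusted p = 4.7e-05), with no overlap, and Gsta4, a glutathione transferase gene, was at -1.05. Genes of the unfolded-protein and amino acid stress list were higher for 9 of 20 members and lower for 2, Psat1 and Mthfd2 (3 and 2 without the 3 libraries). Chac1, a glutathione-degrading enzyme induced by that stress, was at 30.5 to 193 CPM (median 60.5) in Cast libraries, against 5.66 to 49.2 CPM (median 19.7) in WSB libraries (1.98 ± 0.39, adjusted p = 2.75e-05; 1.35, adjusted p = 0.00882 without the 3).

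Slow-fibre genes were more often higher in Cast: 10 of 17 members of that list were higher and 1, Sln, was lower (9 and 0 without the 3 libraries). Pln, which encodes phospholamban, the inhibitor of the slow-fibre calcium pump, was at 11.1 to 32.7 CPM (median 16) in Cast libraries, against 2.35 to 3.66 CPM (median 2.51) in WSB libraries (3.0 ± 0.21, adjusted p = 1.87e-18). Every Cast library exceeded every WSB library, and the 6 other strain means were 1.65 to 5.16 CPM. Myoz2, a slow-fibre Z-disc protein gene, was at 193 to 298 CPM (median 282) in Cast libraries, against 66.6 to 109 CPM (median 87) in WSB libraries (1.56 ± 0.15, adjusted p = 1.17e-12), again with no overlap. Ankrd2, a stretch-responsive Z-disc gene, was at 60.5 to 808 CPM (median 199) in Cast libraries, against 24.9 to 62.6 CPM (median 34.3) in WSB libraries (3.02 ± 0.38, adjusted p = 1.95e-09), and was highest in Cast_5 and Cast_6; without the 3 libraries its difference was 1.50 (adjusted p = 0.000159). Csrp3, which encodes the muscle LIM protein, lost its call without them (1.47, adjusted p = 0.000829, against 0.60, adjusted p = 0.254).

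The fast-fibre list had 8 of 17 members higher and 4 lower in Cast, the lower ones being Myoz3, Casq1, Tnnc2 and Myl1. Tnnt3, the fast troponin T, was at 3380 to 3951 CPM (median 3487) in Cast libraries, against 1442 to 2150 CPM (median 1790) in WSB libraries (1.03 ± 0.09, adjusted p = 3.67e-14), while Myoz3, a fast-fibre Z-disc gene, was at 10.2 to 22.8 CPM (median 18.4) in Cast libraries, against 31.6 to 42 CPM (median 35.4) in WSB libraries (-1.09 ± 0.13, adjusted p = 2.84e-10). Neither overlapped between the strains. Without Cast_2, or without WSB_1, 5 fast-fibre genes were higher and 5 lower, and the lower count was 2 without Cast_1 or Cast_5 and 1 without Cast_6. Without the 3 libraries 7 were higher and 1 lower. Higher calls in both fibre lists stood beside the myofibre markers, of which 6 of 10 were higher and 0 lower in Cast (3 higher without Cast_2, 4 without the 3), and their part in these calls was not tested.

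At the neuromuscular junction, 9 of 20 genes of the denervation and synapse list were higher in Cast and 5 lower, the lower ones being Chrng, Ache, Chrna1, Rapsn and Lrp4. Ache, the acetylcholinesterase gene, was at 3.88 to 27.1 CPM (median 12) in Cast libraries, against 23.9 to 36.3 CPM (median 27.9) in WSB libraries (-1.19 ± 0.22, adjusted p = 5.24e-06; -0.70, adjusted p = 0.00172 without the 3). Musk, the receptor kinase that organises the junction, was at 121, 99.7 and 218 CPM in Cast_1, Cast_5 and Cast_6 and at 24.6 to 38.4 CPM in the other 4 Cast libraries, against 14.1 to 58.9 CPM (median 30.1) in WSB libraries (1.25 ± 0.34, adjusted p = 0.00141). Without Cast_6 the Musk difference was 0.78, and without the 3 libraries -0.05 (adjusted p = 0.922). The lower count of the list was 3 without Cast_5, without Cast_6 or without WSB_6, and without the 3 libraries 7 were higher and 2 lower. Among satellite cell markers, Cdh15, the muscle cadherin gene, and Myf5 were higher in Cast, and Myod1, Calcr and Chodl were lower, out of 8. Cdh15 was at 22.2 to 38.6 CPM (median 30.3) in Cast libraries, against 14 to 20.3 CPM (median 16) in WSB libraries (0.81 ± 0.09, adjusted p = 1.51e-10), and Myod1, the myogenic transcription factor, at 0.836 to 19.3 CPM (median 10.2) in Cast libraries, against 16.8 to 42.6 CPM (median 30.7) in WSB libraries (-1.77 ± 0.30, adjusted p = 1.36e-06). Without Cast_7, 5 of the 8 satellite cell markers were lower.

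Extracellular matrix genes were lower in Cast. Of 23 collagen and matrix genes, 17 were lower and 1, Lox, was higher (14 and 0 without the 3 libraries; median -0.68 and -0.47). Col6a1, a chain of the collagen VI that surrounds fibres, was at 4.67 to 65.1 CPM (median 43.3) in Cast libraries, against 89.8 to 147 CPM (median 105) in WSB libraries (-1.69 ± 0.26, adjusted p = 1.4e-07), with no overlap, and at -1.09 without the 3. Col1a1, a chain of the fibrillar collagen I, was at 6.94 to 322 CPM (median 139) in Cast libraries, against 189 to 958 CPM (median 367) in WSB libraries (-1.72 ± 0.37, adjusted p = 8.79e-05; -1.04, adjusted p = 0.00249 without the 3). Col1a2 (-1.80) and Col3a1 (-1.79) ran alongside, and all 3 fibrillar chains overlapped between the strains. The lowest Cast libraries for Col6a1 were Cast_6 at 4.67 CPM and Cast_5 at 7.07 CPM. Lox, the collagen cross-linking enzyme, was at 19.9 to 280 CPM (median 41.2) in Cast libraries, against 25.3 to 56.4 CPM (median 29.2) in WSB libraries (1.65 ± 0.33, adjusted p = 3.36e-05), and at -0.07 (adjusted p = 0.863) without the 3.

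Markers of fibroblasts, endothelium and smooth muscle were lower as well, while those of fat, nerve and immune cells gave fewer calls. All 10 fibroblast markers were lower in Cast (7 without the 3 libraries), 4 of which, Col1a1, Col3a1, Dcn and Lum, are also in the matrix list. Their summed level was 408 to 1140 CPM (median 670) in Cast libraries, against 1072 to 2282 CPM (median 1383) in WSB libraries. Of 10 endothelium markers 7 were lower and 0 higher, with 7 and 0 without the 3, and the sums were 281 to 310 CPM (median 291) in Cast libraries, against 351 to 475 CPM (median 380) in WSB libraries, with no overlap. Cdh5, the endothelial cadherin, was at 36.7 to 52.9 CPM (median 47.7) in Cast libraries, against 63.7 to 81.9 CPM (median 74) in WSB libraries (-0.67 ± 0.06, adjusted p = 2.08e-13), and Cldn5, the endothelial claudin, was at -0.73 (adjusted p = 3.63e-05). Of 10 smooth muscle and pericyte markers 8 were lower and 0 higher (4 and 0 without the 3). Of 11 macrophage markers 4 were lower, Retnla, Adgre1, Csf1r and C1qa (2 without Cast_3), of 10 Schwann and nerve markers 2, Cnp and Pmp22, were lower (1 without the 3), and of 10 white adipocyte markers 0 were called in either direction. White adipocyte markers summed to 234 to 1131 CPM (median 621) in Cast libraries, against 427 to 1222 CPM (median 768) in WSB libraries. The part of these cell types in the matrix result was not tested.

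**Figure D4:**
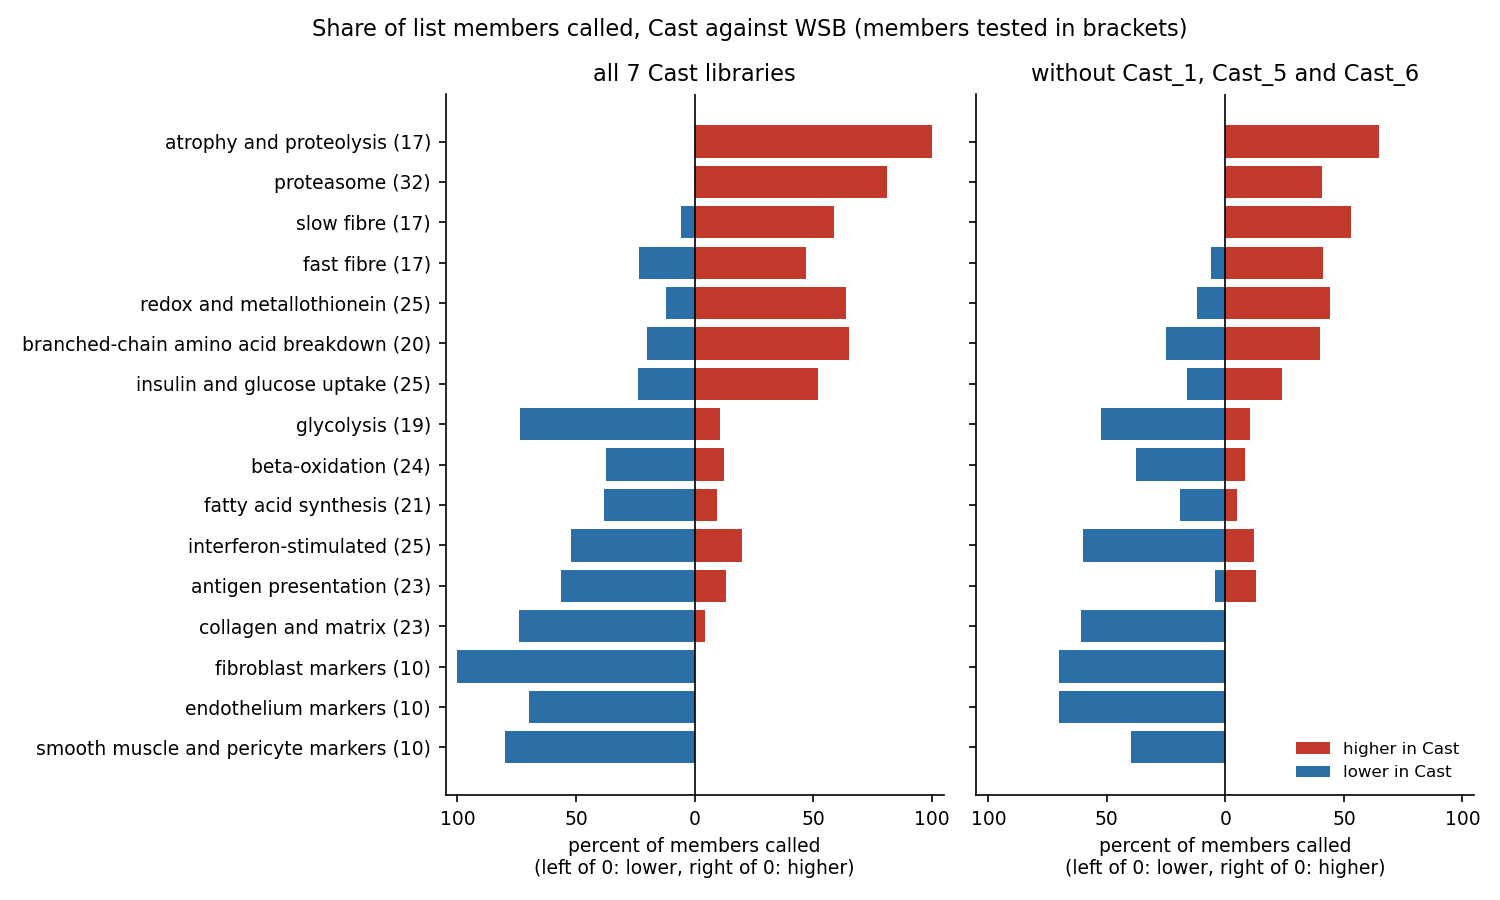
Share of the tested members of 16 gene lists called higher (red, right of 0) or lower (blue, left of 0) in Cast than in WSB, in percent, with all 7 Cast libraries (left panel) and without Cast_1, Cast_5 and Cast_6 (right panel); the number of members is in brackets. The atrophy list is wholly red with all libraries, at 17 of 17, and the fibroblast list wholly blue, at 10 of 10, and the antigen presentation list has 13 lower members with all libraries and 1 without the 3.

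Lists of fuel metabolism differed in the share of members called, which was 52.8% over all genes tested. Of 19 glycolysis genes, 14 were lower and 2 higher in Cast (10 and 2 without the 3 libraries; median -0.35). Pfkfb1, which makes the activator of phosphofructokinase, was at 7.36 to 13.9 CPM (median 8.26) in Cast libraries, against 21.2 to 45 CPM (median 30.3) in WSB libraries (-1.83 ± 0.14, adjusted p = 2.68e-16), and Fbp2, the muscle fructose bisphosphatase, at 16 to 43.7 CPM (median 21.3) in Cast libraries, against 47.2 to 116 CPM (median 72) in WSB libraries (-1.56 ± 0.26, adjusted p = 1.06e-06). Neither overlapped between the strains. The higher ones were Gpi1 (0.56) and Pfkfb3, another isoform of the bifunctional enzyme (0.72, adjusted p = 0.0235). The Pfkfb3 call ended without WSB_1, WSB_4, WSB_8, Cast_1 or Cast_2, each left out alone (0.61, 0.64, 0.58, 0.64 and 0.64).

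Fatty acid synthesis genes were lower in Cast for 8 of 21 members and higher for 2, Lpin1 and Acacb (4 and 1 without the 3 libraries). Taken in both directions, calls were no more frequent than the 52.8% over all genes, although lower calls exceeded the 25.9% over all genes. Fasn, the fatty acid synthase, was at 75.5 to 572 CPM (median 273) in Cast libraries, against 409 to 2185 CPM (median 1044) in WSB libraries (-2.03 ± 0.58, adjusted p = 0.00249; -1.78, adjusted p = 0.0403 without the 3). The strains overlapped, with WSB_9 at 2185 CPM and WSB_3 at 1763 CPM above all others, and the 6 other strain means were 71.7 to 285 CPM. Acly, which supplies the acetyl-CoA, was at 24.3 to 126 CPM (median 47.8) in Cast libraries, against 54.9 to 447 CPM (median 171) in WSB libraries (-1.75 ± 0.38, adjusted p = 0.000126), and the elongase Elovl6 was at -1.92 (adjusted p = 0.00933; 0.123 without the 3). Scd2, a desaturase, was at 16.1 to 43.2 CPM (median 25.1) in Cast libraries, against 51.2 to 99.9 CPM (median 74.7) in WSB libraries (-1.50 ± 0.24, adjusted p = 4.17e-07), and its difference was -0.99 with its near-identical copy Scd1 added. Lpin1, a phosphatidate phosphatase, was higher in Cast at 0.71 (0.34 without the 3), and Acacb, the mitochondrial acetyl-CoA carboxylase, at 0.21 (adjusted p = 0.0432). The Acacb call ended without any one of Cast_1, Cast_5, Cast_6, WSB_1, WSB_4, WSB_5, WSB_7 or WSB_8, with values from 0.15 to 0.22, and without the 3 it was -0.06.

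Of 24 beta-oxidation genes 9 were lower and 3 higher in Cast (9 and 2 without the 3). Both directions together came to less than the 52.8% called over all genes, although lower calls exceeded the 25.9% over all genes. Acadm, the medium-chain acyl-CoA dehydrogenase, was at 133 to 241 CPM (median 204) in Cast libraries, against 295 to 371 CPM (median 310) in WSB libraries (-0.73 ± 0.09, adjusted p = 1.67e-09). The enoyl-CoA hydratase Echs1 was at 118 to 172 CPM (median 133) in Cast libraries, against 61.8 to 106 CPM (median 85.6) in WSB libraries (0.74 ± 0.09, adjusted p = 3.55e-10). Branched-chain amino acid breakdown genes were higher for 13 of 20 and lower for 4, Hibch, Pccb, Pcca and Bckdk (8 and 5 without the 3). Bckdhb, a subunit of the branched-chain ketoacid dehydrogenase, was at 41.8 to 100 CPM (median 44.7) in Cast libraries, against 17.7 to 34.1 CPM (median 26.1) in WSB libraries (1.20 ± 0.16, adjusted p = 3.8e-09; 0.75 without the 3), and Hibch, a later step of valine breakdown, at -0.73. Of 25 insulin and glucose uptake genes 13 were higher and 6 lower (6 and 4 without the 3). Grb14, an adaptor that inhibits the insulin receptor, was at 2.42 to 14 CPM (median 7.82) in Cast libraries, against 28.3 to 33.6 CPM (median 32) in WSB libraries (-2.06 ± 0.21, adjusted p = 5.07e-12; -1.69, adjusted p = 2.26e-10 without the 3), with no overlap and with 6 other strain means of 8.5 to 19.4 CPM. Eif4ebp1, a translation repressor under insulin control, was at 16.6 to 162 CPM (median 25.8) in Cast libraries, against 11.6 to 20.6 CPM (median 17.2) in WSB libraries (1.79 ± 0.29, adjusted p = 4.64e-07; 0.29, adjusted p = 0.285 without the 3).

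Nuclear genes of the respiratory chain were called in both directions, and in both lists less often than the 52.8% over all genes. Of 37 complex I genes 8 were higher and 6 lower in Cast (2 lower without Cast_6 or without the 3), and of 40 genes of complexes II to V 16 were higher and 2, Cox7a1 and Atp5l, lower (4 lower without Cast_1, Cast_2, Cast_3 or Cast_7 and 5 without WSB_7, 14 higher and 1 lower without the 3), with median log2 differences of 0.00 and 0.06. The largest in the lists was Atp5g2, a subunit of the ATP synthase ring, which averaged 116 ± 12.5 CPM in Cast, against 6.37 ± 2.64 CPM in WSB (4.19), but it was at 0.13 (adjusted p = 0.0679) with its measured copy Gm10175 added. Cycs, the cytochrome c gene, was at 1.28 alone and at -0.29 with its measured copy Gm10053 added. With measured copies added, 14 genes of complexes II to V were higher and 3 lower. Among the 13 mitochondrially encoded genes, 5 were higher and 2, mt-Co2 and mt-Nd3, lower. With measured copies added, 5 were higher and 1 lower, since mt-Co2 was then at -0.12 (adjusted p = 0.375). mt-Nd2, a complex I subunit, was at 7740 to 12663 CPM (median 9963) in Cast libraries, against 4750 to 7296 CPM (median 6329) in WSB libraries (0.74 ± 0.11, adjusted p = 1.61e-07). Of 18 myokine and growth factor genes 4 were higher, Igf1r, Musk, Bmp4 and Acvr2b, and 6 lower (0 and 3 without the 3). Igf1r, the receptor of insulin-like growth factor 1, was at 20.4 to 145 CPM (median 36.8) in Cast libraries, against 18.5 to 37.4 CPM (median 22.1) in WSB libraries (1.35 ± 0.22, adjusted p = 6.33e-07; 0.17, adjusted p = 0.366 without the 3).

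Of 19 circadian clock genes 6 were higher in Cast, among them Ciart, Cry2 and Per1, and 1 lower, Bhlhe41 (10 higher and 2 lower without WSB_9, 4 and 1 without the 3). Cry2, a repressor of the clock, was at 22.9 to 180 CPM (median 30.1) in Cast libraries, against 18.8 to 30.2 CPM (median 26.5) in WSB libraries (1.48 ± 0.26, adjusted p = 2.94e-06; 0.04, adjusted p = 0.89 without the 3), and Bhlhe41, another repressor, was at -1.08 (-0.54, adjusted p = 0.272, without the 3). The labels give no time of day.

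Interferon-stimulated genes moved in both directions, with 13 of 25 lower and 5 higher in Cast (15 and 3 without the 3 libraries). Ifit3, an antiviral RNA-binding protein gene, was at 0.338 to 2.48 CPM (median 0.898) in Cast libraries, against 7.82 to 13.1 CPM (median 12.1) in WSB libraries (-3.44 ± 0.29, adjusted p = 6.19e-15), and WSB alone was high, with 6 other strain means of 0.494 to 3.62 CPM. With its near-identical copy Ifit3b added, the difference was -3.57. The RNA sensor gene Ddx58 (-0.89) and the interferon signalling gene Irf9 (-0.57) were lower in Cast with overlap. The 5 higher ones were Oasl1, Mx2, Mx1, Rsad2 and Xaf1, of which Mx1, an antiviral dynamin-like protein gene, was at 0.479 to 2.51 CPM (median 1.4) in Cast libraries, against 0.0885 to 0.693 CPM (median 0.295) in WSB libraries (2.26 ± 0.45, adjusted p = 2.92e-05). Of the 16 symbols of guanylate-binding and immunity-related GTPases, on 17 gene IDs, 5 IDs were lower and 2, Gbp3 and Tgtp1, higher; the lower ones were Gbp10, Tgtp2, Gbp9 and both IDs named Gbp6. With copies added, Tgtp1 was at -0.38 (adjusted p = 0.464) and Tgtp2 at 0.63 (adjusted p = 0.181), so that both calls ended, and 1 ID was higher and 4 lower.

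Antigen presentation genes were lower for 13 of 23 members and higher for 3, H2-Eb1, H2-D1 and H2-T10. This count rested on single libraries: 8 were lower without Cast_5, Cast_6, WSB_1 or WSB_9, each left out alone, and 1 without Cast_1, Cast_5 and Cast_6 together. H2-Aa, a class II chain carried by antigen-presenting cells, was at 0.196 to 27.4 CPM (median 2.82) in Cast libraries, against 7.52 to 65.2 CPM (median 17.3) in WSB libraries (-1.93 ± 0.61, adjusted p = 0.00643; -1.23, adjusted p = 0.132 without the 3). H2-T22, a nonclassical class I gene with near-identical copies, was at 1.25 to 7.27 CPM (median 2.86) in Cast libraries, against 15.4 to 18.1 CPM (median 16.1) in WSB libraries (-2.19 ± 0.21, adjusted p = 2.85e-13), with no overlap, and its difference was -1.69 with H2-T10 added. H2-D1 was higher at 1.06, and at 0.04 with its copy H2-K1 added, and H2-T10 turned to -1.51 with its copies added, which left 1 member higher and 13 lower. Of 11 lymphocyte markers 4 were lower and 0 higher. With single libraries left out, 10 were lower without Cast_7, 2 without WSB_8 and 1 without Cast_1, Cast_2, Cast_3, Cast_5, Cast_6, WSB_1 or WSB_9, and 0 were lower without the 3, beside the lymphocyte sums given above, whose part in these counts was not tested.

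Of 16 measured genes known to vary among inbred mouse strains, 5 were higher and 4 lower in Cast. Cwc22, a splicing factor gene, was at 11.5 to 46.7 CPM (median 14.2) in Cast libraries, against 447 to 612 CPM (median 521) in WSB libraries (-4.60 ± 0.19, adjusted p = 7.25e-29), with 6 other strain means of 8.81 to 10.4 CPM. It has 7 near-identical copies in the annotation, none of which is among the measured genes, and it overlaps Gm13727, so that its reads are uncertain. Snph, which encodes the mitochondrial anchor syntaphilin, was at 65.9 to 100 CPM (median 76.5) in Cast libraries, against 3.06 to 9.86 CPM (median 6.57) in WSB libraries (3.54 ± 0.17, adjusted p = 1.99e-25). Ifi202b, an interferon-inducible DNA-binding protein gene, was at 0 to 0.295 CPM (median 0) in Cast libraries, against 1.75 to 3.77 CPM (median 3.11) in WSB libraries (-4.96 ± 0.44, adjusted p = 1.58e-14). Glo1, the glyoxalase that is copied in some strains, was at 0.80 and its neighbour Btbd9 at 0.33, and Nnt, the mitochondrial transhydrogenase, at 0.68. H2-Ea-ps (-2.40) and the methyltransferase gene Mettl21c (-1.35) were lower. The H2-Ea-ps call ended without the 3 libraries (-1.67, adjusted p = 0.0509) and in a fit of the Cast and WSB libraries alone (adjusted p = 0.0575). The others did not pass the test, at 0.07 for Cox7a2l, 1.12 for Hc, -0.05 for Dysf, -0.36 for Disc1, -0.08 for Mettl21e, -0.56 for Hbb-bs and -0.04 for Hbb-bt. With its measured copy Gm6969 added, Cox7a2l passed as higher in Cast (0.17, adjusted p = 0.0136). With copies added, 6 of the 16 were thus higher and 4 lower. The 5 sex transcripts, Xist, Ddx3y, Eif2s3y, Kdm5d and Uty, gave 0 calls, with Ddx3y at 0.805 to 200 CPM (median 91.3) in Cast libraries, against 0 to 74.4 CPM (median 35.7) in WSB libraries.

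Several of the largest differences belonged to genes with near-identical copies elsewhere in the genome, and became far smaller or reversed when the reads of the copies were added. mt-Co2, the mitochondrial gene of cytochrome oxidase subunit 2, was at 10 to 157 CPM (median 20.9) in Cast libraries, against 3164 to 4204 CPM (median 3769) in WSB libraries (-5.99 ± 0.36, adjusted p = 2.68e-21). Its annotated copy Gm13341 averaged 1995 ± 726 CPM in Cast, against 0.975 ± 1.37 CPM in WSB (SD, n = 7 and 8), and its copy Gm28661 averaged 6943 ± 1416 CPM in Cast, against 5934 ± 974 CPM in WSB. With both copies added, the sum averaged 8999 CPM in Cast, against 9769 CPM in WSB, a difference of -0.12 (adjusted p = 0.375). Ly6c1, an endothelial and myeloid surface protein gene, was at 15.1 to 46.7 CPM (median 20.8) in Cast libraries, against 0 to 0.245 CPM (median 0.0519) in WSB libraries (8.42), and at 0.37 with Ly6c2 and Ly6a added. Rpl17 and Rps12, ribosomal protein genes, were at 6.07 and 5.15 alone, and at 0.25 and 0.49 with their measured copies added, 3 of 25 annotated for Rpl17 and 2 of 23 for Rps12. Eno1b, a retrocopy of the enolase gene Eno1, was at 7.05 alone and at -0.72 with Eno1 added, the 1 measured of its 3 copies. Gbp10 was at -7.08 alone and at -4.21 with Gbp11 and Gbp6, which is the one of these 6 that stayed beyond 1 log2 unit. With copies added, Ly6c1, Rpl17, Rps12, Eno1b and Gbp10 were still called (adjusted p from 1.4e-16 to 0.0242), and mt-Co2 was not. The cytosolic ribosome list, with 35 of 47 genes higher and 4 lower in Cast, and 20 higher and 5 lower without the 3 libraries, has annotated copies for 45 of its members, not all of them measured. With the measured copies added, 37 were higher and 1 lower.

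**Figure D5:**
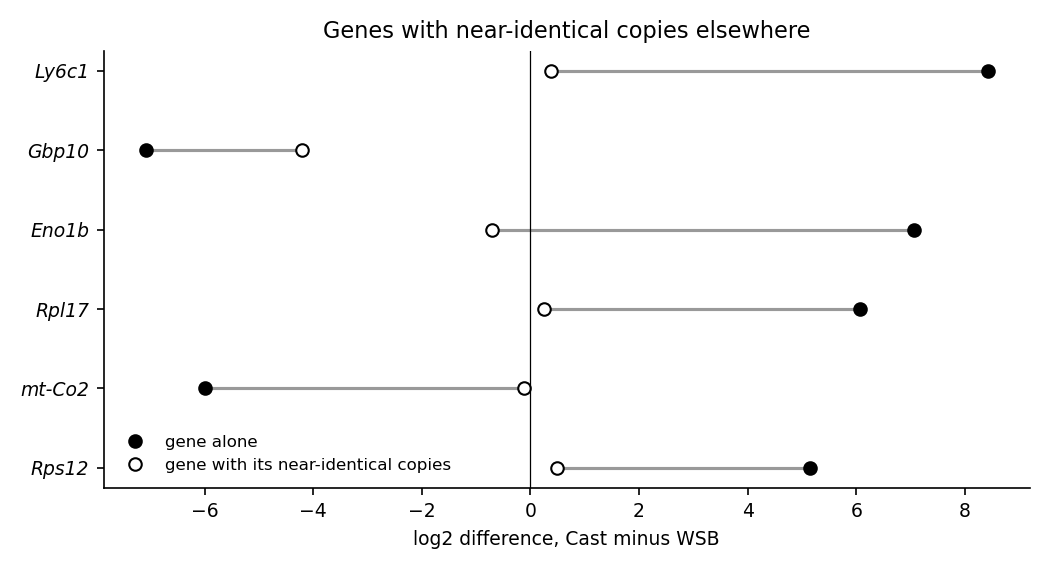
Log2 difference, Cast minus WSB (horizontal axis), of the 6 genes with near-identical copies and the largest differences, from each gene's own reads (filled) and from the sum with its copies (open). Adding the copies brings 5 of the 6 to within 1 log2 unit of 0, Eno1b crosses 0, and Gbp10 remains at -4.21.

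Neighbouring genes that differed together were found as 14 runs of at least 4 tested genes, all called in the same direction by at least 1 log2 unit. Positions are on GRCm38. On chromosome X (13632089 to 17319368) the monoamine oxidase genes Maoa and Maob, which break down catecholamines and serotonin, were lower with Gpr34 and Efhc2, at -1.92 to -1.24. Maob averaged 9.22 ± 5.91 CPM in Cast, against 31.7 ± 4.01 CPM in WSB, and Maoa 3.89 ± 1.1 CPM in Cast, against 10.9 ± 1.12 CPM in WSB. On chromosome 5 (105214907 to 105346472) the guanylate-binding genes formed a lower run, at -7.08 to -1.48. On chromosome 4 (152006759 to 152038568) Klhl21, Zbtb48 and Tas1r1 formed a higher run, and on chromosome 3 (51685907 to 52550219) Foxo1 lay in a run of 6 higher genes with Maml3. One of these, Gm38034, overlaps Foxo1 on the same strand, and Foxo1 itself was at 0.99 without Cast_1, Cast_5 and Cast_6, under the 1 log2 unit that the run requires. Further runs were a higher one in a histone cluster on chromosome 3, a higher one with Slc25a33, Spsb1 and H6pd on chromosome 4, and 7 in which predicted genes took part.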

How the data were processed

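RNA sequencing of skeletal muscle gave gene values for 61 libraries, of which the 7 Cast and 8 WSB libraries were compared. Poly(A) libraries were made with a KAPA mRNA HyperPrep kit, per the labels' protocols. The authors deposited a table of expected counts (estimated counts, 81.3% of them whole) for 19462 genes and a table of variance-stabilised values on a log2 scale. DESeq2 and GRCm38 are named in the submitters' processing notes, while no aligner, counter or strand setting is stated there. Each listed gene reaches 1 count or more in 30 or more libraries, so that a transcript found in Cast and WSB alone could not be in it, and how well Cast and WSB reads map to GRCm38 was not tested.

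The planned test assumed whole counts, so the expected counts were rounded. One fit of edgeR 4.0.16 (R 4.3.3) over all 61 libraries, with strain as the only term, filterByExpr and TMM scaling, gave Cast minus WSB by the quasi-likelihood F test, with Benjamini-Hochberg adjustment and a threshold of 0.05. The script was tested on simulated data. DESeq2 1.42.0, limma 3.58.1 on the deposited log2 values, other filters, scalings and covariates, and leaving out libraries were alternatives. Near-identical copies were found with BLAST 2.17.0 among GENCODE transcripts, at 95% identity or more, with 200 aligned bases or more that span 50% or more of the shorter of both transcripts. Named, among called genes with a mean of 5 CPM or more that are not predicted genes, were the 15 highest and 15 lowest without near-identical copies, the 6 with the largest F of the rest without copies, the 6 largest differences among genes with copies, the leading members of each described list in each direction, and all members of the lists of known variants and sex transcripts. The members and the gene lists were chosen with earlier results of these data known. Some items are not reported here.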

Additional observations from a re-analysis of the deposited data

Results flagged for a closer look

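Sets of values, one per named gene and strain, were searched for outlying libraries, with the 5 sex transcripts left out. In 13 sets a library's gap to the next exceeded Dixon's 95% critical value. Chance gives about 1 in 20 sets, which would be 11.5 of 230 if the sex transcripts were counted in. Among Cast libraries, Cast_5 held 29.8 CPM of Impad1 (the others 12.9 to 16.5 CPM) and 64.6 CPM of Pfkfb3 (the others 215 to 340 CPM). Cast_7 held 13.9 CPM of Pfkfb1 (the others 7.36 to 8.63 CPM) and 44.1 CPM of Mettl21c (the others 14.5 to 19.6 CPM), and Cast_3 held 1.55 CPM of Gbp10 (the others 0 to 0.25 CPM).

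Among WSB libraries, WSB_8 held 13.7 CPM of Ighg2b (the others 0 to 1.07 CPM) and 3.66 CPM of Pln (the others 2.35 to 2.7 CPM). WSB_9 held 3164 CPM of mt-Co2 (the others 3687 to 4204 CPM), 28.3 CPM of Grb14 (the others 31.1 to 33.6 CPM) and 37.4 CPM of Igf1r (the others 18.5 to 23.9 CPM). WSB_1 held 11.6 CPM of Eif4ebp1 (the others 15.9 to 20.6 CPM) and 18.1 CPM of H2-T22 (the others 15.4 to 16.3 CPM), and WSB_4 held 56.4 CPM of Lox (the others 25.3 to 34.6 CPM).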

How the results depend on the processing

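The number of genes called stayed within 1.5 times of 8809 under every alternative run, with 8056 without Cast_6 and 9244 without Cast_7 as the lowest and highest of the fits that left out 1 library, and 6373 without Cast_1, Cast_5 and Cast_6, a setting chosen after seeing the data, as was the brown adipocyte covariate. A fit of the Cast and WSB libraries alone called 6280 of 15164 genes, the fewest of any alternative. It called 2857 genes lower in Cast, against 4322, and ended the calls of H2-Aa, H2-Ea-ps, Pfkfb3, Bhlhe41 and Acacb. At least 1 log2 unit was passed by 1443 genes under the stricter filter and by 686 in limma on the variance-stabilised values, against 2635. DESeq2 called 9047. Replicate numbers did not pair the libraries (correlations of -0.26 to 0.18 over 6 shared numbers, none of the 6 best matched to its own number), and a fit with the replicate block called 8693 genes. Of the 36 genes in the highest, lowest and largest-F groups, 32 kept their calls under all 28 alternatives in which they were tested, the others being Ighg2b, Ighg2c, Mt1 and Mt2. With copies added Eno1b reversed to -0.72. Without Cast_1, Cast_5 and Cast_6, Lox (-0.0681), Acacb (-0.0562) and Musk (-0.0497) reversed and 11 other named genes lost their calls; the cause was not tested. Depth limits genes near 0, such as Tmem232 and Gad1 in WSB, whose fitted fold depends on the prior count.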

Other observations

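Sterol synthesis genes were more often lower than higher in Cast. Of 22 members of the cholesterol list, 10 were lower, among them Sqle, Hmgcs1 and Cyp51, and 4 higher, Mvk, Hsd17b7, Lss and Fdft1 (4 and 3 without Cast_1, Cast_5 and Cast_6). Sqle, the squalene epoxidase, was at -0.77 (adjusted p = 0.0117). Of 22 heat shock genes 7 were higher and 8 lower (5 and 7 without the 3).

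Of 19 growth-related imprinted genes 7 were lower in Cast, among them the neighbouring maternally expressed noncoding RNA genes Meg3 (-0.56), Rian (-0.76) and Mirg (-0.81), and 3 were higher (4 and 1 without the 3). Of 8 tendon markers 5 were lower and Thbs4 higher (2 and 1 without the 3). Of 28 xenobiotic enzyme genes 8 were higher and 5 lower, the lower ones including Cyp1a1 at -4.85 (adjusted p = 9.82e-10). Hepatocyte markers gave 0 calls among 16, with sums of 225 to 9865 CPM (median 1639) in Cast libraries, against 206 to 6860 CPM (median 1418) in WSB libraries, and keratinocyte markers gave 0 among 8, with sums of 4.13 to 478 CPM (median 14.4) in Cast libraries, against 4.45 to 416 CPM (median 9.2) in WSB libraries.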
